A study of Homo sapiens with 15 samples.

Results

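A set of 10 genes known as targets of the hypoxia-inducible factors was followed through every library: NDRG1, VEGFA, NDUFA4L2, CA9, EGLN3, ANKRD37, BNIP3, ADM, PFKFB4 and PDK1. They were taken by symbol, and all 10 were found once each among the 58780 named rows of the gene count table. The cells were atrial cardiomyocytes differentiated from H7, an established human embryonic stem cell line with the labelled genotype wt. There were 5 groups with 3 libraries each: a scramble siRNA, siRNA-1 or siRNA-2 against ATRNL1, a control lentivirus, and a lentivirus that carried the short isoform of ATRNL1. ATRNL1 encodes attractin-like 1, a membrane protein, and the study asked what lowering or raising it does in atrial cardiomyocytes. Per the labels' protocols, the stem cells before differentiation were kept at 5% O2 and 10% CO2, spheroids were dissociated on day 17, and transduced cells were selected with puromycin. The oxygen level of the cardiomyocyte cultures, the days of treatment and harvest and the promoter of the vector were not given in the sources used here. The line is 1 source of cells, and it is not stated whether the libraries are separate cultures, so p-values reflect only library-to-library spread, which may be technical.

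Cells sense oxygen through prolyl hydroxylases of the EGLN family. With oxygen present these enzymes mark the alpha subunits of the hypoxia-inducible factors (HIF1A, EPAS1) for binding by VHL and destruction. With little oxygen the alpha subunits last, pair with ARNT and bind DNA at the core letters ACGTG or GCGTG near their target genes. The targets turn metabolism from respiration towards glycolysis, send signals to blood vessels, and include EGLN3, which acts back on the pathway. Heart muscle depends on respiration, and the pathway is known there for its part in the response to a poor blood supply.

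Library totals ran from 37078568 to 108663135 counts, and levels are given as CPM (counts scaled to a common library total) after TMM scaling. ATRNL1 stood at 13.8 to 16.9 CPM with the scramble siRNA, 8.26 to 10.2 with siRNA-1 and 4.61 to 5.41 with siRNA-2. It stood at 27.1 to 29.2 with control lentivirus and 636 to 927 with ATRNL1 lentivirus. Each treatment thus moved ATRNL1 as labelled against the control of its own delivery method. The 2 controls differed too, with every control lentivirus library above every scramble library. All 7 cardiomyocyte markers were present, with a summed level of 32300 to 43200 CPM over all libraries. Of 7 atrial markers only NR2F1 was at or under 1 CPM throughout. The atrial markers summed to 1990 to 3050 CPM, most of it MYL7, at 1960 to 2590 CPM by group mean. The ventricular markers were present too, at 2140 to 5630 CPM, so these sums do not single out an atrial identity. The pluripotency markers (4 of 4) and the endothelial markers other than KDR (5 of 6) were at or under 1 CPM. In scramble, siRNA-1 and the control lentivirus, 1 library lay between the other libraries of its group in 76%, 60.7% and 57.9% of genes above 20 CPM. The mean share over the 3 libraries of a group is 33.3%. Genes vary together, so a high share does not tell whether libraries are independent. In 4 of the 5 groups, all but scramble, the number in 1 sample title joins the numbers of the other titles, and what this means is not stated. The joined titles and the in-between shares did not go together. Scramble had the highest share without such a title, and siRNA-2 and the ATRNL1 lentivirus had such titles with shares of at most 40.5% and 44%. Counts of called genes that move by over 1.5 times without those 3 in-between libraries are given both ways, whereas levels and the genes most like the 10 are given with all libraries.

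The letters that HIF binds were looked for in RefSeq promoter windows (build GRCh38.p14, from 250 bases before to 50 after a start). Windows were found for 7 of the 10 genes, PDK1 having 2 of them. ACGTG or GCGTG occurred on either strand in 6 of the 8 windows, against 48.4% of all 35116 windows. ACGTG occurred in 4 of the 8 and in 21.4% of all windows, GCGTG in 3 of the 8 and in 36.5%, and a window can hold both. A stretch of 30 bases around the matches is shown for each of the 6 genes, since these letters are what the group is thought to share. Capitals mark ACGTG or GCGTG, or the reverse complements CACGT and CACGC where the match is on the other strand, and CACGTG holds a match on both strands.
ANKRD37: gggctcCACGTGccagtgtttgtgtACGTG
BNIP3: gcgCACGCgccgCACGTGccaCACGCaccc
PDK1: ctgcccgcCACGTccctCACGTaccactcg
CA9: ctcgtttccaatgCACGTacagcccgtaca
ADM: agagcaggagcgcGCGTGgctgaggaaaga
PFKFB4: gtgagttgggcatGCGTGgtcggaggccgg
The stretches lie at chr4:185396673-185396702 (plus strand), chr10:131982040-131982069 (minus strand), chr2:172556065-172556094 (plus), chr9:35673897-35673926 (plus), chr11:10304959-10304988 (plus) and chr3:48556953-48556982 (minus), in the order shown. BNIP3 had 4 matches within its stretch, ANKRD37 had 3 and PDK1 had 2, while CA9, ADM and PFKFB4 had 1 each. The CA9 match began 18 bases before the start. The EGLN3 window and the other PDK1 window held neither core, which says only that these letters are not in those windows. A match is a description of the sequence, and binding was not measured.

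In the scramble libraries the level per kilobase of merged exons (CPM per kb) was highest for BNIP3, at 104. PDK1 (45.8) and VEGFA (37.8) followed and overlapped between libraries, then came ADM (18.7) and EGLN3 (11.7). NDRG1 (2.93) and NDUFA4L2 (2.46) overlapped, and PFKFB4 (1.83), CA9 (1.51) and ANKRD37 (0.524) were the lowest. With siRNA-1 no neighbours in the order overlapped, and CA9 (2.2) stood above PFKFB4 (1.82). With siRNA-2 VEGFA (41.7) stood above PDK1 (38.9) but overlapped it, and NDUFA4L2 overlapped PFKFB4, as PFKFB4 did CA9. With the control lentivirus BNIP3 (44.1) and PDK1 (37.2) overlapped, NDRG1, ANKRD37 and CA9 overlapped in turn, and NDUFA4L2 was last at 0.0507 CPM per kb. With the ATRNL1 lentivirus EGLN3 stood at 47.2, above VEGFA at 36.1, and CA9 (1.74) overlapped NDUFA4L2 (1.66). These lengths count the exons of all annotated isoforms, so genes with many isoforms, such as VEGFA and PDK1, have a lower level per kb than their main transcript would give.

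**Figure D1:**
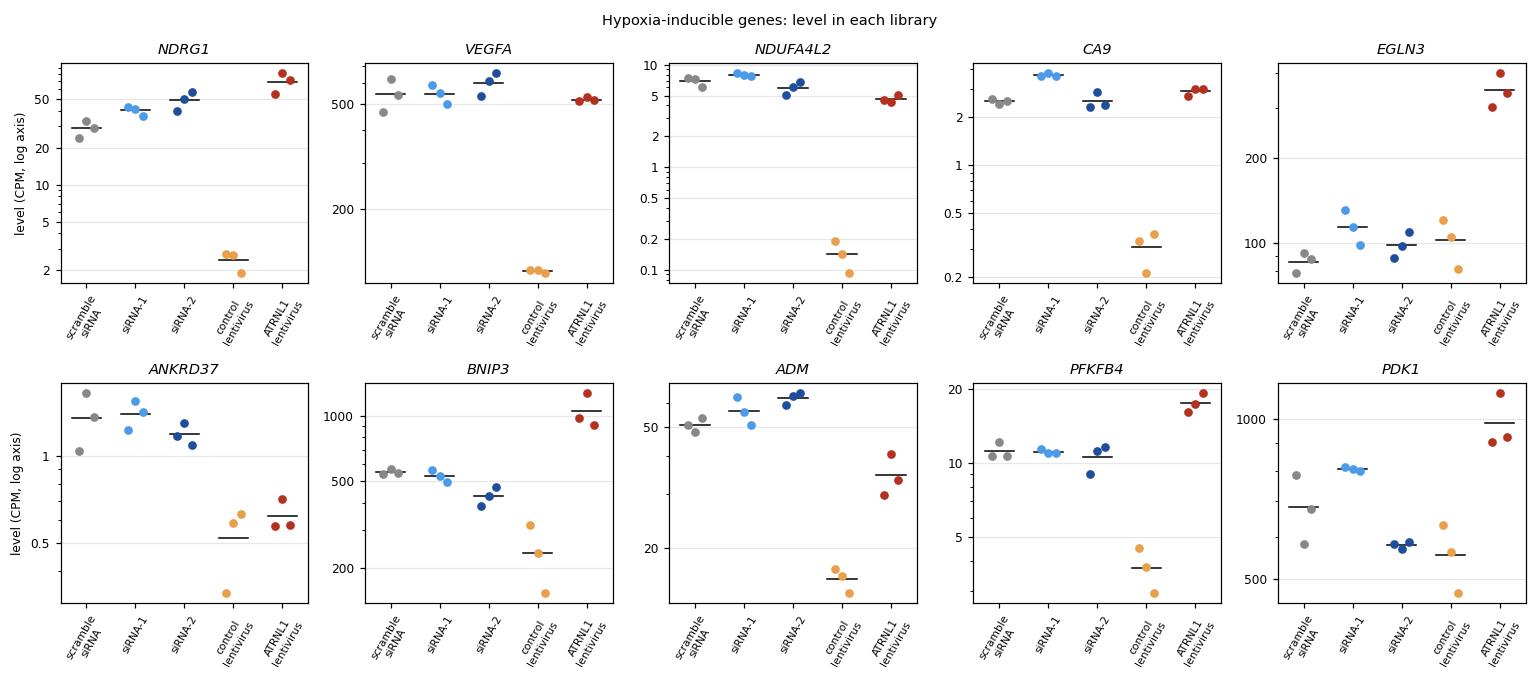
Level of the 10 genes in each library (CPM, log axis, a scale of its own per gene), with points for the 3 libraries of each group and a bar for their mean. The control lentivirus stands below the other groups for NDRG1, VEGFA, NDUFA4L2, CA9, ADM, BNIP3 and PFKFB4, whereas EGLN3 stands apart only in the ATRNL1 lentivirus libraries, at 303 to 399 CPM.

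The ATRNL1 lentivirus was compared with the control lentivirus to see what raising ATRNL1 changed. Of the 10 hypoxia-inducible genes 9 rose, by 1.78-fold to 31.3-fold, and ANKRD37 alone did not pass the test. The libraries of the 2 groups did not overlap for those 9 genes. Over all 24659 genes tested, 37.1% were called in this comparison (19.1% higher, 18% lower), and 42.9% did not overlap (21.4% higher, 21.5% lower). The median log2 fold change was 2.16 for the 10 genes and 0.000585 for all genes tested. The 10 genes and the lists of related genes below were chosen with earlier results of these data known. Their counts beside the shares of all genes are therefore a description and not a test of the set. All adjusted p-values come from the quasi-likelihood test of edgeR, adjusted by Benjamini-Hochberg over all genes tested, with a call at 0.05, and the standard error (SE) is on the log2 scale.

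EGLN3 is a prolyl hydroxylase of the oxygen sensor family (GENCODE release 29 on GRCh38, as for the positions that follow: chromosome 14, 33924231 to 34462774, minus strand). It stood at 121, 105 and 81.3 CPM in the control lentivirus libraries and at 303, 399 and 339 CPM with ATRNL1. Every library with ATRNL1 was far above the highest control. The rise was 3.39-fold (log2 fold change 1.76, SE 0.122, edgeR adjusted p = 1.7e-11).

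VEGFA and ADM encode secreted signals. VEGFA, the main growth factor for blood vessels (chromosome 6, 43770184 to 43786487, plus strand), was at 118, 118 and 115 CPM in the controls and at 512, 531 and 519 CPM with ATRNL1. Within each group the libraries were nearly equal, and the groups were far apart. The rise was 4.45-fold (log2 fold change 2.15, SE 0.0921, edgeR adjusted p = 3.75e-15). ADM encodes adrenomedullin, a peptide that widens blood vessels (chromosome 11, 10304680 to 10307397, plus strand). It went from 17, 16.1 and 14.2 to 29.8, 40.6 and 33.5 CPM, again with no overlap. Its rise of 2.19-fold (log2 fold change 1.13, SE 0.0975, edgeR adjusted p = 9.13e-10) was among the smaller ones.

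NDUFA4L2, CA9, PFKFB4 and PDK1 act in metabolism. NDUFA4L2 encodes a mitochondrial protein that lowers respiration under hypoxia (chromosome 12, 57234903 to 57240715, minus strand). It was close to undetected with the control lentivirus, at 12, 14 and 4 reads (0.191, 0.142 and 0.0933 CPM), and stood at 4.54, 4.35 and 5.08 CPM with the ATRNL1 lentivirus. The difference of 31.3-fold (log2 fold change 4.97, SE 0.198, edgeR adjusted p = 1.14e-15) was the largest of the 10 and rests on those few control reads. CA9, a carbonic anhydrase of the cell surface that helps to export acid (chromosome 9, 35673856 to 35681159, plus strand), was at 0.335, 0.213 and 0.373 CPM in the controls, or 21, 21 and 16 reads. With the ATRNL1 lentivirus it was at 2.71, 2.99 and 3 CPM. Both CA9 and NDUFA4L2 were thus low-level genes in every group, far under VEGFA or BNIP3 per kb. The CA9 rise was 9.96-fold (log2 fold change 3.32, SE 0.188, edgeR adjusted p = 5.6e-13).

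PFKFB4 is a bifunctional enzyme that sets the pace of glycolysis (chromosome 3, 48517684 to 48562015, minus strand). It stood at 4.51, 3.79 and 2.96 CPM in the controls and 16.1, 17.5 and 19.3 CPM with ATRNL1. The groups were well separated, and the rise was 4.63-fold (log2 fold change 2.21, SE 0.119, edgeR adjusted p = 2.53e-13). PDK1 encodes pyruvate dehydrogenase kinase 1, which keeps pyruvate out of the mitochondrial cycle (chromosome 2, 172555373 to 172608669, plus strand). Its libraries read 632, 561 and 470 against 907, 1120 and 924 CPM. PDK1 was abundant in both groups and had the smallest of the 9 rises, 1.78-fold (log2 fold change 0.83, SE 0.102, edgeR adjusted p = 3.61e-07).

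BNIP3 encodes an outer mitochondrial membrane protein that marks mitochondria for removal (chromosome 10, 131966455 to 131982013, minus strand). The control lentivirus libraries were at 316, 234 and 154 CPM and the ATRNL1 lentivirus libraries at 974, 1270 and 905 CPM. The controls spread more widely for BNIP3 than for VEGFA, yet the lowest library with ATRNL1 was above all of them. BNIP3 rose 4.47-fold (log2 fold change 2.16, SE 0.158, edgeR adjusted p = 5.18e-11). BNIP3 has 39 annotated pseudogenes, whose counts summed to 0.461% to 4.19% of those of BNIP3, and how reads were shared among them was not given in the sources used here.

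NDRG1, a stress-responsive gene of the N-myc downstream-regulated family, lies on chromosome 8, minus strand. It was at 2.71, 2.65 and 1.91 CPM in the controls and at 54.7, 81.2 and 71.8 CPM with ATRNL1. The separation was wide in every library, and the rise was 27.9-fold (log2 fold change 4.80, SE 0.166, edgeR adjusted p = 1.49e-16). ANKRD37 encodes a protein of ankyrin repeats (chromosome 4, 185396021 to 185400628, plus strand). It was at 0.335, 0.587 and 0.63 CPM, or 21, 58 and 27 reads, in the controls and at 0.572, 0.711 and 0.577 CPM, or 54, 47 and 30 reads, with ATRNL1. The groups overlapped, and the log2 fold change of 0.26 (SE 0.25, edgeR adjusted p = 0.449) was no larger than about its own error.

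CA9 and ANKRD37 share exon bases with a gene on the opposite strand, and whether reads were counted by strand was not given in the sources used here. ARHGEF39 covers 38.5% of the CA9 exon bases. It fell with the ATRNL1 lentivirus, from 13.3 ± 1.17 to 6.71 ± 1.25 CPM (SD, n = 3; log2 fold change -0.97, edgeR adjusted p = 2.19e-07), which is the direction opposite to CA9. UFSP2 covers 35.2% of the ANKRD37 exon bases and is far more abundant, at 31.6 ± 1.15 and 35.5 ± 4.53 CPM in the 2 lentiviral groups. Its log2 fold change was 0.17 (edgeR adjusted p = 0.107).

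The summed ventricular markers also stood higher with the ATRNL1 lentivirus, at 4900 to 5630 CPM against 2980 to 3480, while cardiomyocyte markers overlapped at 38100 to 41400 against 35400 to 39400. Atrial markers summed to 2340 to 2460 against 2920 to 3050 CPM, endothelial markers to 50.2 to 52.6 against 61.7 to 72.2, with only KDR above 1 CPM. Fibroblast markers were at 107 to 130 against 105 to 108 CPM. Most of the cardiomyocyte sum is TTN, at 23100 CPM with the control and 26000 with the ATRNL1 lentivirus on average. By gene, 3 of 7 cardiomyocyte markers were called higher and 2 lower, beside 37.1% of all genes called. Of 7 atrial markers 2 were lower and 5 not called. Ventricular markers were higher in 3 of 4, and fibroblast markers higher in 2 and lower in 1 of 6. The part of these marker levels in the result was not tested, and in bulk RNA fewer cells of a type and less RNA per cell cannot be told apart.

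The control lentivirus was also set against the scramble siRNA, which shows where the lentiviral baseline lay. Here 9 of the 10 genes were lower, 8 of them without overlap, and EGLN3 was not called. Over all genes tested 63.6% were called (33.2% lower, 30.3% higher), and 68.5% did not overlap (35.6% lower, 32.9% higher). The median log2 difference was -1.62 for the 10 genes and -0.0554 for all genes. Delivery by virus or siRNA, puromycin and any batch go with the groups and cannot be told apart. Markers of other cell types moved with this comparison too. Smooth muscle and pericyte markers summed to 250 to 312 CPM in scramble and 578 to 600 with the control lentivirus, with RGS5 at 97.9 ± 30.4 and 349 ± 4.68 CPM (SD, n = 3). Fibroblast markers summed to 145 to 202 and 105 to 108 CPM, and epicardial markers to 3.55 to 5.23 and 7.28 to 8.12. Single markers did not all follow these sums. Of 4 smooth muscle and pericyte markers 3 were called higher and 1 lower, and of 6 fibroblast markers 2 were higher and 3 lower. Of the epicardial markers, 2 of 2 tested were higher. The part of these markers in the result was not tested.

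The scramble libraries read 7.36, 7.24 and 6.12 CPM for NDUFA4L2, which was 46.3-fold lower with the control lentivirus (log2 difference -5.53, SE 0.193, edgeR adjusted p = 7.19e-18). NDRG1 read 24.1, 33.2 and 29 CPM in scramble and was 11.6-fold lower (-3.54, SE 0.163, edgeR adjusted p = 1.03e-15). CA9 read 2.61, 2.43 and 2.54 CPM and was 8.69-fold lower (-3.12, SE 0.19, edgeR adjusted p = 1.99e-13). These 3 had the largest reductions of the 10. VEGFA, at 469, 622 and 544 CPM in scramble, was 4.66-fold lower, and ADM, at 50.8, 48.2 and 53.6 CPM, 3.22-fold lower. PFKFB4 read 10.7, 12.2 and 10.7 CPM in scramble and was 2.94-fold lower. Both vessel signals and the glycolytic regulator were therefore reduced beyond the spread of the libraries. ANKRD37 read 1.04, 1.65 and 1.36 CPM in scramble and was 2.64-fold lower (edgeR adjusted p = 8.68e-06). BNIP3 read 542, 568 and 546 CPM and was 2.35-fold lower. PDK1 read 785, 582 and 678 CPM in scramble, and its difference of -0.30 was called (edgeR adjusted p = 0.0131) although the groups overlapped. That PDK1 call was lost without scramble library 1 (adjusted p = 0.0817), without control lentivirus library 3 (adjusted p = 0.0907) and without the in-between libraries (adjusted p = 0.0732). EGLN3 read 78.8, 92.4 and 87.9 CPM in scramble, which the control lentivirus range of 81.3 to 121 overlapped (log2 difference 0.24, SE 0.119, edgeR adjusted p = 0.0772). EGLN3 was called higher with no filter on low counts (adjusted p = 0.0055) and without control lentivirus library 3 (0.36, adjusted p = 0.00941), the direction opposite to the other 9 genes.

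The ATRNL1 lentivirus libraries can be read beside scramble by their ranges, with no test, since delivery differs. VEGFA lay within the scramble range. EGLN3, BNIP3, NDRG1, PFKFB4, PDK1 and CA9 lay above it in every library, the last only slightly, at 2.71 to 3 against 2.43 to 2.61 CPM. NDUFA4L2, ADM and ANKRD37 lay below it in every library, with ADM at 29.8 to 40.6 against 48.2 to 53.6 CPM.

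**Figure D2:**
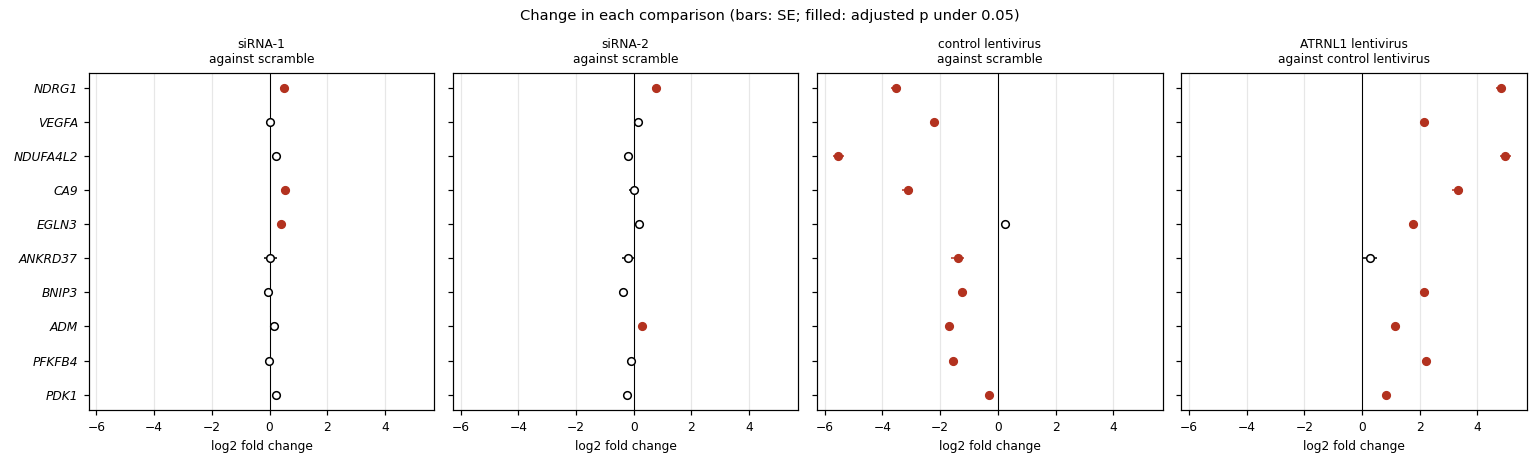
Log2 fold change of the 10 genes in 4 comparisons, with bars of 1 SE and filled points for an adjusted p under 0.05. All 9 called genes lie right of 0 with the ATRNL1 lentivirus and 9 lie left of 0 for the control lentivirus against scramble, while both siRNA panels stay within 1 of 0.

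The siRNAs against ATRNL1 were each compared with scramble, and in the main fit NDRG1 alone was called with both. With siRNA-1, NDRG1, CA9 and EGLN3 were higher than with scramble and none was lower, so 3 of 10 were called beside 9.61% of all genes tested (5.85% higher, 3.76% lower). For 5 of the 10 the siRNA-1 libraries lay above all scramble libraries, against 14.7% of all genes (28.8% did not overlap, 14.1% lower). The median log2 fold change was 0.18, and -0.00636 over all genes.

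With siRNA-1, NDRG1 read 43, 41.7 and 36.4 CPM, all above the highest scramble library of 33.2, and rose 1.4-fold (log2 fold change 0.49, SE 0.133, edgeR adjusted p = 0.0188). CA9 read 3.62, 3.77 and 3.63 CPM and rose 1.45-fold (0.54, SE 0.141, edgeR adjusted p = 0.0132). EGLN3 read 131, 114 and 99.1 CPM and rose 1.33-fold (0.41, SE 0.119, edgeR adjusted p = 0.0282). These are small rises, and 2 more genes had no overlap with scramble without being called. NDUFA4L2 read 8.29, 7.94 and 7.69 CPM (log2 fold change 0.21, adjusted p = 0.303), and PDK1 read 811, 804 and 800 CPM (0.24, adjusted p = 0.155). PDK1 was called higher with no filter on low counts (edgeR adjusted p = 0.0361). The other genes overlapped scramble. VEGFA read 592, 551 and 501 CPM, ADM 62.6, 56.2 and 50.6, and BNIP3 563, 531 and 499. PFKFB4 read 11.4, 11 and 11 CPM, and ANKRD37 1.23, 1.55 and 1.42. Their log2 fold changes ran from -0.06 for BNIP3 to 0.15 for ADM. The 3 siRNA-1 calls fell to 1 (CA9) in DESeq2, to 1 (NDRG1) against scramble library 1 alone, and to 0 without siRNA-1 library 2, without scramble library 3 or without the in-between libraries, where the adjusted p-values of the 3 genes ran from 0.144 to 0.202. CA9 alone was called without siRNA-1 library 1, CA9 and PDK1 were called without scramble library 1, and the sign of the 3 genes held in each of these.

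With siRNA-2, NDRG1 and ADM were higher than with scramble and none was lower, that is 2 of 10 beside 18.1% of all genes called (9.64% higher, 8.48% lower). Without overlap 2 were higher and 1 lower, beside 36.7% of all genes (18.7% higher, 18% lower). The median log2 fold change was -0.04, and 0.00273 over all genes. NDRG1 read 39.7, 49.7 and 57.3 CPM, above every scramble library, and rose 1.69-fold (log2 fold change 0.76, SE 0.132, edgeR adjusted p = 1.46e-04). ADM read 58.9, 63.2 and 64.6 CPM, also above every scramble library, and rose 1.22-fold (0.29, SE 0.0928, edgeR adjusted p = 0.0296). BNIP3 read 386, 430 and 469 CPM, below all scramble libraries, but was not called (-0.37, SE 0.152, adjusted p = 0.102). It was called lower with no filter on low counts (adjusted p = 3.7e-05) and in the fit of only these groups (adjusted p = 0.00393). The other 7 overlapped scramble. VEGFA read 538, 612 and 656 CPM and EGLN3 88.7, 98.3 and 110. NDUFA4L2 read 5.07, 6 and 6.82 CPM, CA9 2.3, 2.87 and 2.38, and ANKRD37 1.17, 1.3 and 1.09. These ranges overlapped those of scramble but were not the same, with EGLN3 at 78.8 to 92.4 and NDUFA4L2 at 6.12 to 7.36 CPM in scramble. PFKFB4 read 9.02, 11.2 and 11.6 CPM and PDK1 581, 568 and 586. PDK1 was not called (-0.24, adjusted p = 0.115), but was called lower with no filter (adjusted p = 0.0213), without scramble library 2 (adjusted p = 0.018) and against scramble library 1 alone (adjusted p = 0.0167). The ADM call was lost without siRNA-2 library 2 or 3, without scramble library 2 or 3, against scramble library 1 alone and without the in-between libraries, with an adjusted p of 0.051 to 0.256. NDRG1 was called for siRNA-2 in every alternative.

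The 2 siRNAs were compared directly, since they lowered ATRNL1 to different levels. NDUFA4L2, CA9 and PDK1 were higher with siRNA-1 than with siRNA-2, 3 of 10 beside 10.1% of all genes called (5.6% higher, 4.53% lower), and none was lower. Libraries did not overlap for 4 of the 10, all higher with siRNA-1, beside 33.9% of all genes (16.9% higher, 17% lower). The difference was 0.48 on the log2 scale for PDK1 (SE 0.102, edgeR adjusted p = 0.00255), 0.55 for CA9 (SE 0.141, adjusted p = 0.0127) and 0.42 for NDUFA4L2 (SE 0.117, adjusted p = 0.0198). All 3 genes had siRNA-1 libraries above every siRNA-2 library, as did BNIP3, which was not called (0.31, edgeR adjusted p = 0.239). BNIP3 was called higher with siRNA-1 with no filter (adjusted p = 0.0022) and in the fit of only these groups (adjusted p = 0.00103). NDRG1, which rose with both siRNAs, differed between them by -0.28 (SE 0.131, adjusted p = 0.222), and was called lower with siRNA-1 with no filter (adjusted p = 0.0131) and in the fit of only these groups (adjusted p = 0.0383). Without the in-between libraries only the PDK1 call remained, with CA9 at an adjusted p of 0.0703 and NDUFA4L2 at 0.1, and without siRNA-2 library 1 it was again PDK1 alone.

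The effect of overexpression minus the mean effect of the 2 siRNAs asks whether raising and lowering ATRNL1 acted differently. This difference was positive for 9 of the 10 genes, beside 32% of all genes called (16.5% positive, 15.5% negative), with a median of 2.17 against 0.0143 over all genes. The medians of the 10 genes were 0.18 with siRNA-1, -0.04 with siRNA-2 and 2.16 with the ATRNL1 lentivirus. The difference thus mostly repeats the lentiviral result and is not a separate one. It was largest for NDUFA4L2 at 4.97 (SE 0.229, edgeR adjusted p = 5.11e-14) and NDRG1 at 4.18 (SE 0.195, adjusted p = 6.26e-14). CA9 followed at 3.05 (SE 0.227) and BNIP3 at 2.37 (SE 0.201). PFKFB4 stood at 2.25, VEGFA at 2.08 and EGLN3 at 1.46. The smallest called differences were 0.91 for ADM (SE 0.125, adjusted p = 2.91e-06) and 0.83 for PDK1 (SE 0.134, adjusted p = 2.51e-05). ANKRD37 was not called, at 0.35 (SE 0.309, adjusted p = 0.441).

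The genes of the pathway above these targets moved in both directions. Of 12 HIF subunits and oxygen-sensing genes, 8 rose and 2 fell with the ATRNL1 lentivirus, with a median log2 fold change of 0.26. Over all genes tested 19.1% were called higher and 18% lower, with a median of 0.000585. Without the in-between libraries 5 rose and 2 fell. EPAS1, the alpha subunit also called HIF2A, rose from 12.2 ± 2.05 to 30.9 ± 3.61 CPM (SD, n = 3; log2 fold change 1.34, SE 0.105, edgeR adjusted p = 1.48e-10). EGLN1, the main oxygen-sensing prolyl hydroxylase, rose from 160 ± 21.1 to 413 ± 70.2 CPM (1.37, SE 0.106, adjusted p = 1.4e-10). HIF1A, the other alpha subunit, went the opposite way and fell from 646 ± 16.7 to 390 ± 62.6 CPM (-0.73, SE 0.0869, adjusted p = 2.22e-07). ARNT2 fell by 0.45 on the log2 scale. EGLN2 (0.38), EP300 (0.37), CITED2 (0.34), HIF3A (0.32), CREBBP (0.21) and ARNT (0.21) rose by less than 1.5-fold. VHL and HIF1AN, which mark or silence the alpha subunits, were not called, at 0.17 and -0.04.

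HIF1A was also the gene in which the control lentivirus differed most upwards from scramble within this list, at 646 ± 16.7 against 311 ± 29.5 CPM (log2 difference 1.05, SE 0.0875, edgeR adjusted p = 7.36e-11). Its level was therefore highest in the group in which 9 of the 10 targets were below scramble. In that comparison 4 of the 12 were higher and 7 lower, beside 30.3% of all genes higher and 33.2% lower. The HIF alpha subunits are regulated mainly through the stability of the protein, which was not measured.

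**Figure D3:**
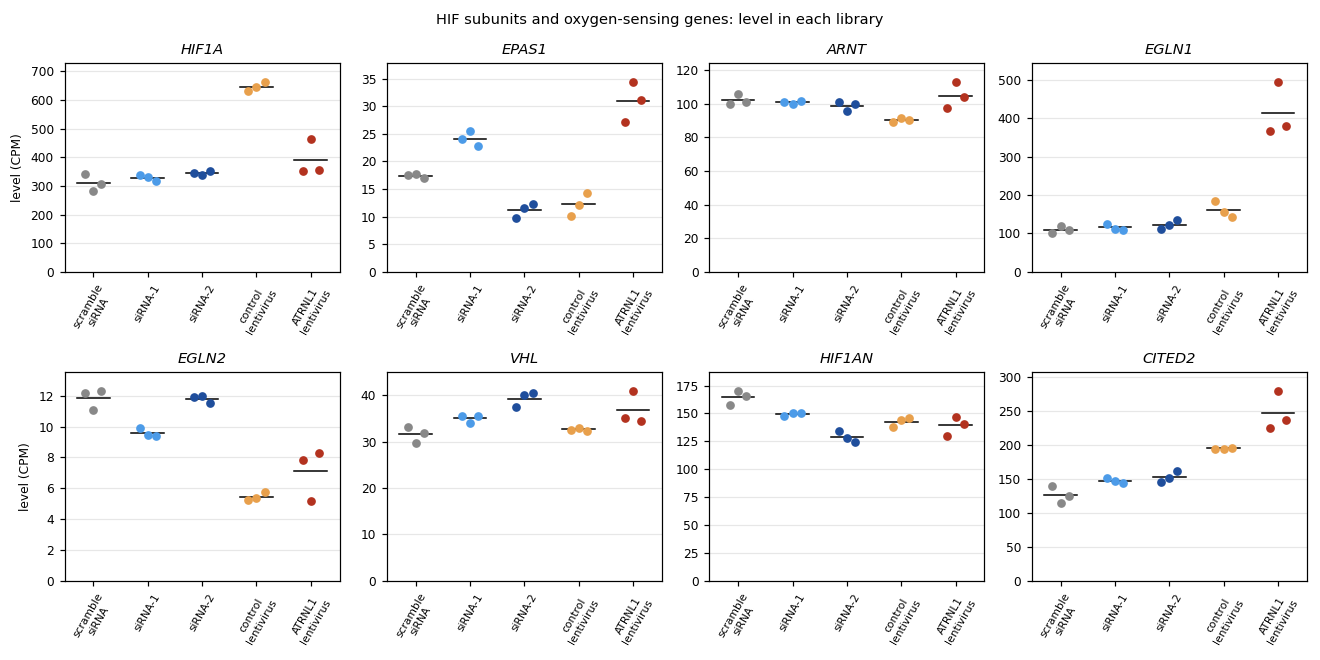
Level of 8 HIF subunits and oxygen-sensing genes in each library (CPM, axes from 0), with points for the 3 libraries of each group and a bar for their mean. HIF1A is highest with the control lentivirus (630 to 663 CPM), EGLN1 with the ATRNL1 lentivirus (366 to 494 CPM), and EPAS1 differs between siRNA-1 and siRNA-2.

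With siRNA-1, 2 of the 12 were higher and 0 lower, beside 9.61% of all genes called. With siRNA-2, 3 were higher and 2 lower, beside 18.1%. ARNT2 rose with both, by 0.86 (SE 0.0995, edgeR adjusted p = 2.27e-06) and 1.06 (SE 0.0981, adjusted p = 2.73e-08). EPAS1 moved apart: it rose with siRNA-1 from 17.4 ± 0.406 to 24.1 ± 1.44 CPM (SD, n = 3; 0.47, adjusted p = 0.00349) and fell with siRNA-2 to 11.2 ± 1.35 CPM (-0.64, adjusted p = 8.01e-05). The siRNAs differed in EPAS1 by 1.11 in log2 (SE 0.106, adjusted p = 1.14e-07), the largest difference between them in this list. The EPAS1 call for siRNA-1, 1 of the 2, was lost without the in-between libraries (adjusted p = 0.148) and against scramble library 1 alone (adjusted p = 0.127). HIF1A was not called with either siRNA, at 0.08 and 0.15.

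Among 45 other genes known to be induced by hypoxia, 41 rose and 1 fell with the ATRNL1 lentivirus, with a median log2 fold change of 1.33. Over all genes tested 19.1% were called higher and 18% lower. STC1, a secreted glycoprotein hormone, rose from 2.96 ± 0.983 to 26.8 ± 4.31 CPM (SD, n = 3; log2 fold change 3.16, SE 0.153, edgeR adjusted p = 3.9e-14). HK2, the hexokinase that starts glycolysis, rose from 133 ± 24.9 to 1010 ± 198 CPM (2.93, SE 0.158, adjusted p = 2.57e-13). CA12, EDN1 and CXCR4, named after their values were seen, were the 3 not called, at 0.15, 0.08 and 0.0014. For the control lentivirus against scramble 30 of the 45 were lower and 7 higher, beside 33.2% of all genes lower and 30.3% higher. BHLHE40, a transcriptional repressor, was 11.4-fold lower there, at 6.52 ± 1.04 against 74.7 ± 16.6 CPM, and DDIT4, an inhibitor of mTOR signalling, 22.6-fold lower, at 0.379 ± 0.14 against 8.01 ± 0.555 CPM.

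All 14 glycolytic enzymes of the list rose with the ATRNL1 lentivirus, with a median log2 fold change of 1.23. All 14 were lower with the control lentivirus than with scramble, with a median of -1.81. Over all genes 19.1% were called higher with the ATRNL1 lentivirus, and 33.2% lower with the control lentivirus than with scramble. ENO2, an enolase, had the largest rise, from 64.5 ± 3.25 to 287 ± 18.4 CPM (SD, n = 3; log2 fold change 2.15, SE 0.105, edgeR adjusted p = 4.24e-14). LDHA, which turns pyruvate into lactate, rose from 829 ± 200 to 3410 ± 493 CPM (2.04, SE 0.127, adjusted p = 2.5e-12).

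Of the 45 other hypoxia-inducible genes, 9 were higher and 3 lower with siRNA-1, beside 9.61% of all genes called, and 7 were higher and 6 lower with siRNA-2, beside 18.1%. The medians were 0.09 and -0.03. Without the in-between libraries the counts were 2 higher and 1 lower with siRNA-1, and 2 higher and 4 lower with siRNA-2. STC1 rose with both, by 0.79 and 0.61 on the log2 scale (edgeR adjusted p = 3.61e-04 and 0.00208). P4HA2, a collagen prolyl hydroxylase, fell with both, by 0.43 and 0.69, but against scramble library 1 alone it read -0.0068 and -0.28. Its siRNA-1 call was lost without any 1 siRNA-1 library, without scramble library 2 or 3 and in the fit of only these groups. It was also lost without the in-between libraries, and the edgeR adjusted p-values of these fits ran from 0.0578 to 0.206. With siRNA-2, SLC2A1, the glucose transporter GLUT1, rose by 0.49 (SE 0.142, adjusted p = 0.0159), a call that DESeq2 did not make (adjusted p = 0.0797) and that was lost without the in-between libraries (adjusted p = 0.0852). Glycolytic enzymes went the other way with siRNA-2, where 7 of 14 fell and 0 rose (median -0.27), beside 8.48% of all genes lower. PGAM1 (-0.82, SE 0.0682, adjusted p = 5.99e-09) and ENO1 (-0.47, SE 0.0896, adjusted p = 4.46e-04) led these falls. With siRNA-1 only PGAM1 fell, by 0.44, and 0 rose. Compared directly, 7 of 14 were higher with siRNA-1 than with siRNA-2 and 0 lower, beside 10.1% of all genes called. ENO1 differed most, by 0.58 (SE 0.0897, adjusted p = 8.54e-05). Without the in-between libraries 5 of 14 fell with siRNA-2, and 2 were higher with siRNA-1 than with siRNA-2.

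**Figure D4:**
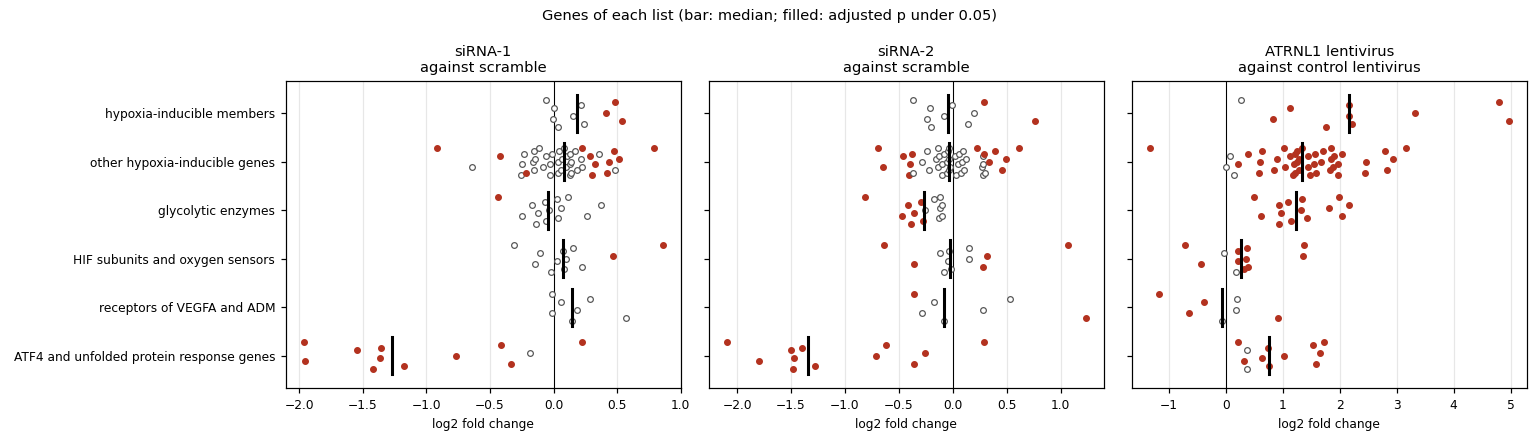
Log2 fold change of each gene in 6 lists for both siRNAs and the ATRNL1 lentivirus (a scale of its own per panel), with filled points for an adjusted p under 0.05 and a bar at each list's median. With the ATRNL1 lentivirus the 10 hypoxia-inducible genes have a median of 2.16 and the 45 others 1.33, while with the siRNAs the medians of both lists lie near 0 and that of the ATF4 and unfolded protein response genes lies at -1.27 and -1.34.

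The paralogs of the 10 genes allow a look within each family. Of 20 paralogs, 11 rose and 3 fell with the ATRNL1 lentivirus, with a median log2 fold change of 0.35. Over all genes tested 19.1% were called higher and 18% lower. PFKFB3, the sister enzyme of PFKFB4, rose from 14.7 ± 0.646 to 52.1 ± 8.21 CPM (SD, n = 3; log2 fold change 1.82, SE 0.124, edgeR adjusted p = 1.39e-11), and PFKFB2 rose by 1.22. BNIP3L, which like BNIP3 acts in the removal of mitochondria, rose from 160 ± 24.5 to 363 ± 42.7 CPM (1.18, adjusted p = 1.73e-10). The kinases beside PDK1 differed among themselves. PDK3 rose from 129 ± 8.49 to 197 ± 18 CPM (0.62) and PDK2 rose by 0.50, whereas PDK4 was not called, at 7.17 ± 0.426 and 6.4 ± 0.933 CPM (-0.17, adjusted p = 0.312). PDK4 was the paralog with the largest rise from scramble to the control lentivirus among those of at least 1 CPM, from 1.91 ± 0.0812 CPM (1.91, SE 0.135, adjusted p = 3.22e-12).

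NDUFA4, the respiratory chain subunit that NDUFA4L2 resembles, moved against it with overexpression, from 190 ± 6.14 to 156 ± 26.8 CPM (SD, n = 3; log2 fold change -0.29, SE 0.0858, edgeR adjusted p = 0.00876). That call was lost without ATRNL1 lentivirus library 1 (adjusted p = 0.0968) or 3 (adjusted p = 0.0617). It also fell with siRNA-1 by 0.65 and with siRNA-2 by 0.35, from 186 ± 2.52 CPM in scramble. NDRG3 fell by 0.38 with overexpression, NDRG2 rose by 0.32, and NDRG4 was not called, at 0.16. VEGFB rose by 0.58, while VEGFC was not called, at 0.12. CA14 rose by 0.29 and CA12 was not called. ADM2 rose by 4.21 at very low levels, 0.0379 ± 0.0491 against 0.597 ± 0.161 CPM, with at least 1 control library at 0.

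Receptors of the secreted signals moved in both directions. Of 8 receptor genes for VEGFA and adrenomedullin, 7 passed the filter on low counts, and 1 rose and 3 fell with the ATRNL1 lentivirus, beside 37.1% of all genes called. NRP2, a co-receptor for VEGF proteins, rose from 129 ± 2.4 to 244 ± 20.1 CPM (SD, n = 3; log2 fold change 0.92, SE 0.0699, edgeR adjusted p = 9.37e-11). KDR, the main signalling receptor of VEGFA, fell from 66.4 ± 5.33 to 51 ± 1.3 CPM (-0.38, SE 0.119, adjusted p = 0.0133). CALCRL, which forms the adrenomedullin receptor with a RAMP protein, fell from 2.02 ± 0.313 to 1.27 ± 0.346 CPM (-0.65, SE 0.214, adjusted p = 0.0192). Without the in-between libraries 1 rose and 0 fell, with KDR at an adjusted p of 0.053 and CALCRL at 0.0931, and either call was also lost without single lentiviral libraries.

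Some of the 10 genes and some of their partners are also known targets of stress pathways that need no hypoxia, so genes of ATF4 and the unfolded protein response were read beside them. Of 12 such genes, 10 rose and 0 fell with the ATRNL1 lentivirus (median 0.75), beside 37.1% of all genes called. With siRNA-1 10 fell and 1 rose (median -1.27), beside 9.61% of all genes called. With siRNA-2 11 fell and 1 rose (median -1.34), beside 18.1%. The scramble libraries stood far apart in several of these genes, with HSPA5 at 905 to 2190 CPM, HERPUD1 at 98.6 to 239, DDIT3 at 14.5 to 33.3 and SDF2L1 at 5.02 to 15.5, genes chosen after their values were seen. Against scramble library 1 alone 6 fell with siRNA-1 (median -0.59) and 7 with siRNA-2 (median -0.68), and without the in-between libraries 8 fell with each (medians -1.25 and -1.32), while 0 rose in any of these. DDIT3, a transcription factor of this response, rose by 1.72 with overexpression (SE 0.191, edgeR adjusted p = 7.12e-08) and TRIB3, a pseudokinase, by 1.64 (SE 0.235, adjusted p = 3.47e-06). CHAC1, an enzyme that degrades glutathione, fell by 1.97 with siRNA-1 and by 2.10 with siRNA-2, and SDF2L1, a protein of the endoplasmic reticulum, by 1.96 and 1.80. For the control lentivirus against scramble 11 of the 12 were lower and 1 higher (median -2.12), beside 33.2% of all genes lower and 30.3% higher. The part of this response in the levels of the 10 genes was not tested. This list shares VLDLR with the hypoxia list. The paralog list shares EGLN1 and EGLN2 with the HIF list, and CA12, BNIP3L and PFKFB3 with the hypoxia list.

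How far the 10 genes vary together is given as a description. Over the 15 libraries the median Pearson r of log2 CPM was 0.737 among the 45 pairs, with 42 positive, with the control lentivirus libraries low in most of the genes. The libraries of a group share their treatment and may not be independent. With each group's mean taken away the median r was 0.339, with 34 of 45 positive. Without the in-between libraries the medians were 0.715 and 0.341. NDRG1 and EGLN3 were the pair closest to each other in these deviations, at 0.89, followed by EGLN3 with BNIP3 at 0.861. Against the mean of the other 9 genes, EGLN3 stood at 0.321 over the 15 libraries but at 0.909 in the deviations. CA9 did the reverse, at 0.96 over the libraries and -0.00515 in the deviations. ANKRD37 stood at 0.431 and -0.362.

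The 8 genes most like the mean of the 10 over the 15 libraries, out of 14888 of at least 1 CPM, were SLC17A5 (r = 0.986), BTBD11 (0.984), RAB20 (0.984), NEFM (0.983), LDHA (0.981), ZNF275 (0.98), CDK18 (0.979) and SLC2A3 (0.978). RAB20, LDHA and SLC2A3 stand in the hypoxia or glycolysis lists, and the other 5 do not. NEFM, which encodes a neurofilament protein, was lowest with the control lentivirus, at 1.68 CPM, and highest with the ATRNL1 lentivirus, at 18.5 CPM on average. In deviations from the group means the closest were ARF6 (0.96), GGA2 (0.947), SLC2A1 (0.936), ENO1 (0.931), WRNIP1 (0.926), CRY1 (0.924), MEA1 (0.921) and HNRNPAB (0.917). SLC2A1, a glucose transporter, and ENO1, an enolase, are in the lists.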

How the data were processed

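RNA was measured by sequencing after ribosomal RNA depletion, per the labels' protocols, although the molecule field names polyA RNA. The authors deposited raw whole-number read counts per gene. GRCh 38, DESeq2 1.30.1 and STAR 2.7.9a are named, without roles, per the submitters' processing notes. The counting program, its strand setting and read filters were not given in the sources used here. Columns gave each library's group but not its sample, so library numbers follow column order and do not pair libraries. Gene models came from GENCODE release 29. The 649 unnamed rows held 0.00157% to 0.00437% of counts and were left out.

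Genes were filtered with filterByExpr, scaled with TMM and fitted in 1 quasi-likelihood model of 5 group means (edgeR 4.0.16, R 4.3.3), with Benjamini-Hochberg adjustment over 24659 genes. SE is the log2 fold change over the square root of F. Log2 CPM for correlations used an offset of 0.5 CPM. Simulated data were used to test the fit. Alternatives were DESeq2 1.42.0, other scalings and filters, pairwise fits, leaving out libraries and scramble library 1 as sole control. The 10 genes and the lists were chosen with earlier results of these data known. From each related list, up to 2 called genes rising and 2 falling most, of at least 1 CPM, are named in a comparison, with HIF subunits and paralogs free to be named. A gene that this rule picks is not reported here.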

Additional observations from a re-analysis of the deposited data

Results flagged for a closer look

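The 2 siRNAs against ATRNL1 differed from each other, by the test of that difference, in 3 of the 10 hypoxia-inducible genes. The effect of siRNA-1 minus that of siRNA-2 on the log2 scale was 0.424 for NDUFA4L2, 0.545 for CA9 and 0.477 for PDK1 (quasi-likelihood test of edgeR, adjusted p = 0.0198, 0.0127 and 0.00255). PDK1 kept its call in every alternative run, and the calls of NDUFA4L2 and CA9 were lost in several.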

How the results depend on the processing

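No paired analysis was possible because the columns carry no replicate numbers tied to the labels. With the ATRNL1 lentivirus, 9 of the 10 genes were called higher in every alternative, as were 9 for the difference between overexpression and knockdown. No called gene changed sign. Genes called for siRNA-1 (3) became 4 with no filter (PDK1 added), 1 in DESeq2, 0 without the in-between libraries (an alternative chosen after seeing the data) and 0 to 3 leaving out 1 library each. Those for siRNA-2 (2) became 4 with no filter (2 higher, and BNIP3 and PDK1 lower), 1 without the in-between libraries and 1 to 2 leaving out 1 library. Those differing between the siRNAs (3) became 5 with no filter and 5 with only the groups compared (in both 4 higher, and NDRG1 lower), 1 without the in-between libraries and 1 to 3 leaving out 1 library. The cause was not tested. The lists of related genes were run under the same alternatives, a choice made after seeing the data.

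Sign changes concerned uncalled genes near 0. For siRNA-1, PFKFB4 read 0.00606 with DESeq2 size factors, 0.00863 in DESeq2, 0.00124 with only the groups compared, 0.0625 against scramble library 1 alone and -0.0318 to 0.0669 leaving out 1 library each. VEGFA read -0.00101 with no filter and -0.0785 to 0.12 leaving out 1 library each. ANKRD37 read -0.0389 without the in-between libraries and -0.0899 to 0.193 leaving out 1 library each. For siRNA-2, CA9 read 0.066 with library size only and 0.000433 without the in-between libraries and -0.11 to 0.0614 leaving out 1 library each, PFKFB4 -0.143 to 0.0301 likewise, and ANKRD37 0.175 against scramble library 1 alone. PFKFB4 read -0.000262 between the siRNAs with library size only and -0.034 to 0.147 leaving out 1 library each. ANKRD37 read -0.0207 for overexpression minus knockdown against scramble library 1 alone.

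Over all genes, calls for siRNA-1 went from 2370 to 568 against scramble library 1 alone and 732 without the in-between libraries, and for siRNA-2 from 4470 to 1803 and 2457. Between the siRNAs 2499 became 4914 with only the groups compared and 1065 without the in-between libraries. Overexpression minus knockdown went from 7879 to 4886 against scramble library 1 alone. Scaling by library size only moved the share of higher calls from 53.2% to 70.1% for siRNA-2, from 55.3% to 33.7% between the siRNAs and from 47.7% to 36.6% for control lentivirus against scramble, where the median of all genes moved from -0.0554 to -0.256. The median correlation among the 10 genes was 0.5 by Spearman's rho and, in deviations, 0.229 with library size only. Low counts limit ANKRD37, CA9 and NDUFA4L2 in the control lentivirus libraries.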
